A study of Mus musculus with 13 samples.

Results

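The genes described here are the cytotoxic granule and receptor genes of T and NK cells, a list of 10 genes (Gzma, Gzmb, Gzmk, Prf1, Nkg7, Ncr1, Klrd1, Klrk1, Cd8a and Cd3e) out of 20270 genes in lung RNA tables. They were matched by symbol, and the list was picked because Gzma was lower after bleomycin and higher in the knockout, so the levels in those 2 comparisons are given as a description and without p-values. Of the 10, 9 had enough counts to be tested beside 15315 genes in all, and Gzmk did not.

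Lung RNA came from 13 mice. The 4 Control mice were wildtype and received saline, the vehicle. The 5 WT bleomycin mice were given bleomycin once by oropharyngeal aspiration, at 1 U per kg, and were taken 14 days later. The 4 CB1R KO bleomycin mice lacked Cnr1, the gene of the cannabinoid receptor CB1R, in the whole body (Cnr1-/-) and had the same dose and interval. Wildtype mice were male C57BL/6J animals, 13 weeks old. The knockout was on the same background, and its age is not given in the sources used here. The paper does not state its sex, or whether it shared a colony with the wildtype mice, which were obtained from The Jackson Laboratory. A difference in age, sex or colony could not be told apart from the genotype. No knockout mice without bleomycin were analysed here, so an effect of the deletion in uninjured lung cannot be told apart from one after bleomycin. RNA was taken from a whole lung lobe, so a lower level can mean fewer cells of a type or less RNA in each, and these cannot be told apart.

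Of the libraries, 12 held 14615904 to 16662580 estimated counts, and CB1R KO replicate 11 held 53463884, which was 3.33 times their median. Replicates are named by the numbers in their labels. All pairs of replicates within a group differed by more than sampling noise. The lung markers Sftpc, of type II alveolar cells, and Ager, of type I cells, were high in every group. CPM here are estimated counts scaled to library size and composition by edgeR's TMM method. Mean levels were 6638 to 11827 CPM for Sftpc and 1588 to 1843 for Ager. The genotype could not be checked from Cnr1 itself. Its CPM was 2.67 ± 1.09 (SD, n = 4) in control, 5.77 ± 1.37 (n = 5) in WT bleomycin and 4.04 ± 1.37 (n = 4) in CB1R KO lungs. The knockout was not separated from WT bleomycin in edgeR's quasi-likelihood test (log2 fold change -0.53 ± 0.28 SE, adjusted p = 0.367), and counts summed over a gene do not show whether its deleted part is read. CB1R KO is therefore used as the label gives it.

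Cytotoxic lymphocytes kill infected or damaged cells by releasing granules at the site of contact. Perforin, the product of Prf1, opens a path through the membrane of the target, and granzymes, which are serine proteases, enter and start cell death. Nkg7 is a membrane protein of the granule that is needed for its efficient release. Klrd1 encodes CD94, which pairs with NKG2 proteins to read a nonclassical class I molecule on other cells, Klrk1 encodes NKG2D, which reads stress ligands, and Ncr1 encodes NKp46, an activating receptor that defines NK cells together with a part of the innate lymphoid cells. Cd8a is a coreceptor of cytotoxic T cells, and Cd3e is a chain of the receptor complex of all T cells. In mouse lung, circulating NK cells are a large share of the lymphocytes held in the capillaries, and they carry much of the Gzma and Prf1 RNA.

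Genes of this programme are known targets of T-box factors (T-bet and Eomes), Runx3 and Ets1. Promoter windows of 300 bases, from 250 before to 50 after the start, were found in RefSeq (GRCm38.p6) for 9 of the 10 genes. The windows of Gzma, Prf1 and Nkg7, the 3 genes called higher in the knockout, and of Cd3e, which differed least between groups, are printed below in the direction of the gene, with capitals for matches on either strand to 3 core motifs.

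Gzma promoter, chr13:113100932-113101231, minus strand: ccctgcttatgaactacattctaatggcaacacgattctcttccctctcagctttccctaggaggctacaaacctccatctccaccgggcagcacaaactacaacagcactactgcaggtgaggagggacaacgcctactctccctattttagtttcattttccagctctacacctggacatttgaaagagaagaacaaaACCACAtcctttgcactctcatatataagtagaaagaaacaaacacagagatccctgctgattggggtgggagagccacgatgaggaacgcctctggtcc

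Prf1 promoter, chr10:61297586-61297885, plus strand: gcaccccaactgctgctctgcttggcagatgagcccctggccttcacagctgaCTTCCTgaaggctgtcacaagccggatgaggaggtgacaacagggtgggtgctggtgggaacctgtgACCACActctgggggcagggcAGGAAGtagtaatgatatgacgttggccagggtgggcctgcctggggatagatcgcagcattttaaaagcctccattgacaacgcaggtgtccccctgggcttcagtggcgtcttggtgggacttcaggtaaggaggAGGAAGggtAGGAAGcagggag

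Nkg7 promoter, chr7:43436888-43437187, plus strand: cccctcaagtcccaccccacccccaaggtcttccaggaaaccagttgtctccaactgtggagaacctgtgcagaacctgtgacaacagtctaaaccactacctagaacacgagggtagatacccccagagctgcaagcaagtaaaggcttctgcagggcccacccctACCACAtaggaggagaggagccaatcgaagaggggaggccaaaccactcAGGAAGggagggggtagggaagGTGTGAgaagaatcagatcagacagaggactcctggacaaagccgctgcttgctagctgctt

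Cd3e promoter, chr9:45009562-45009861, minus strand: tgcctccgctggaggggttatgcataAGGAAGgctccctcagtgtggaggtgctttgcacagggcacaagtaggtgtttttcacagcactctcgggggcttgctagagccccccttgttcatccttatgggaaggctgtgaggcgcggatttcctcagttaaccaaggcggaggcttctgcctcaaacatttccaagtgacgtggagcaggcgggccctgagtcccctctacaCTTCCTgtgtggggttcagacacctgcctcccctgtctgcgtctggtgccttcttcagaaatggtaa

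The T-box core was searched as TCACAC, the Runx core as TGTGGT and the Ets core as AGGAAG, and a match on the other strand reads as the reverse complement. The Gzma window held 1 Runx match, 50 bases before the start. The Prf1 window held 1 Runx match and 4 Ets matches. All 3 motifs matched once in the Nkg7 window, within 83 bases before the start, and the Cd3e window held 2 Ets matches. No match of one motif overlapped a match of another. Over the 9 genes, the Runx core was found in 6, the T-box core in 4 and the Ets core in 3, and among all 32851 promoter windows of the same length these cores were found in 16.8%, 14.5% and 35.4%. A match is a run of letters and not evidence of binding.

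Gzma had the highest level of the list in every group. In TPM, which are scaled for transcript length and so allow genes to be compared, Gzma stood at 60.6 ± 8.33 (SD, n = 4) in control lungs. Nkg7 followed at 20.6 to 27.0 in the 4 libraries and Klrd1 at 15.0 to 17.9. Klrk1 stood at 10.4 ± 0.557 TPM, apart from Klrd1 by more than their spread. Ncr1, Gzmb, Prf1 and Cd3e lay between 8.69 and 8.19 and did not differ beyond their SDs, which reached 2.54. Cd8a was lower at 6.01 ± 1.24, and Gzmk was near absent at 0.352 ± 0.174. This order changed after bleomycin. In WT bleomycin lungs Cd3e, at 6.20 ± 1.22 TPM, stood above Gzmb (4.40 ± 0.344), Cd8a (2.82 ± 0.629), Prf1 (2.62 ± 0.361) and Ncr1 (2.41 ± 0.926), while Gzma kept the first place at 17.1 ± 3.09 (n = 5).

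Of the list, Gzma, Nkg7 and Prf1 had the largest differences between CB1R KO and WT bleomycin, and Ncr1 and Gzma those between WT bleomycin and control. Gzma, which encodes a trypsin-like granzyme, had 34.7, 27.0, 28.8 and 27.8 CPM in the control libraries 3, 21, 24 and 26. The WT bleomycin libraries 4, 2, 5, 4-B2 and 7 had 9.44, 7.72, 7.19, 6.71 and 9.56 CPM, and the CB1R KO libraries 8, 9, 10 and 11 had 15.9, 17.7, 11.4 and 16.5. The 3 groups did not overlap, and every CB1R KO library lay between the WT bleomycin and the control libraries. The mean level was 27.5% of control in WT bleomycin and 52.1% in CB1R KO lungs by the fitted fold changes. On the log2 scale WT bleomycin differed from control by -1.86 ± 0.14 (SE), the knockout from WT bleomycin by 0.92 ± 0.14 and the knockout from control by -0.94 ± 0.14.

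Prf1, encoding perforin, had 14.4, 11.6, 14.2 and 11.9 CPM in control libraries, 4.24, 4.08, 3.62, 3.05 and 4.20 in WT bleomycin libraries and 7.13, 7.60, 5.03 and 6.11 in CB1R KO libraries. As for Gzma, the 3 groups did not overlap and replicate 10 was the lowest of the knockout. The log2 difference was -1.76 ± 0.15 between WT bleomycin and control and 0.75 ± 0.15 between CB1R KO and WT bleomycin.

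Nkg7 had 12.5, 9.79, 11.0 and 10.1 CPM in control libraries, 5.57, 3.46, 3.81, 2.98 and 4.75 in WT bleomycin libraries and 6.89, 5.85, 7.87 and 9.03 in CB1R KO libraries. Again no group overlapped another, but here replicates 10 and 11 were the highest of the knockout. The log2 difference was -1.40 ± 0.18 between WT bleomycin and control and 0.86 ± 0.18 between CB1R KO and WT bleomycin.

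Gzmb, encoding the granzyme that cleaves caspases, had 8.56, 6.97, 7.36 and 7.60 CPM in control libraries. The WT bleomycin libraries were nearly equal, at 3.93, 3.95, 3.81, 3.95 and 3.39, and the CB1R KO libraries had 4.77, 5.07, 5.84 and 4.30. All 4 knockout libraries were above all 5 WT bleomycin libraries, by a log2 difference of 0.38 ± 0.13, which was smaller than that of Gzma. Gzmk, a granzyme of memory CD8 T cells, had 2.0 to 6.0 estimated counts in control libraries, which is 0.128 to 0.361 CPM. In WT bleomycin libraries it reached 1.08 CPM in replicate 4, was at 0.123 to 0.138 in 3 others and had no count in replicate 2, which allows up to 0.185 CPM by counting error alone. In CB1R KO libraries it had 0.131, 0.482, 1.67 and 0.690 CPM. These groups overlapped, and no fold change was fitted.

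**Figure D1:**
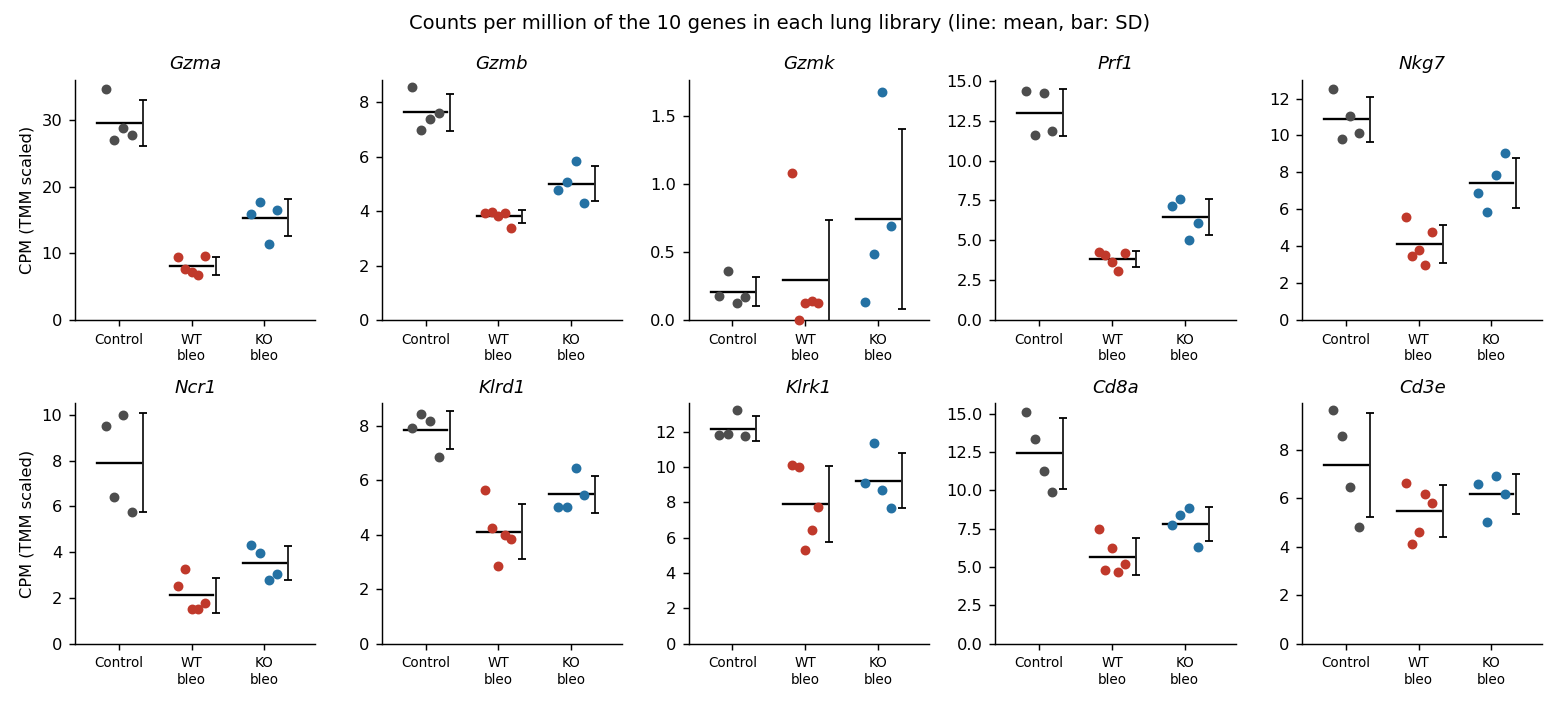
CPM (y axis, starting at 0) of the 10 genes in the 4 control, 5 WT bleomycin and 4 CB1R KO bleomycin libraries (x axis). Each point is 1 library, the line is the group mean and the bar its SD, drawn down to 0 at most. For Gzma, Prf1, Nkg7 and Gzmb every CB1R KO point lies between the WT bleomycin and the control points, whereas the Cd3e and Gzmk groups overlap.

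Of the receptors, Ncr1 had the lowest share of its control level. Control libraries had 9.51, 6.43, 9.99 and 5.73 CPM, WT bleomycin libraries 2.53, 3.27, 1.50, 1.52 and 1.79, and CB1R KO libraries 4.32, 3.98, 2.80 and 3.03. Both bleomycin groups lay below all control libraries, at 27.0% and 44.3% of control, but WT replicate 2 lay within the range of the knockout. The log2 difference was -1.89 ± 0.26 between WT bleomycin and control and 0.72 ± 0.26 between CB1R KO and WT bleomycin.

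Klrd1 had 7.91, 8.44, 8.18 and 6.86 CPM in control libraries, 5.66, 4.25, 2.86, 3.99 and 3.85 in WT bleomycin libraries and 5.02, 5.01, 6.47 and 5.46 in CB1R KO libraries. Klrk1 had 11.8, 11.9, 13.2 and 11.8 CPM in control libraries, 10.1, 10.0, 5.31, 6.41 and 7.75 in WT bleomycin libraries and 9.09, 11.4, 8.68 and 7.71 in CB1R KO libraries. For both receptors all bleomycin libraries lay below all control libraries in CPM, and the bleomycin groups overlapped each other. In TPM both bleomycin groups overlapped control for Klrk1. There WT bleomycin replicate 2 (10.9) and CB1R KO replicate 9 (10.6) lay within the control range of 9.78 to 11.0. Their log2 differences from WT bleomycin to the knockout were 0.41 ± 0.17 for Klrd1 and 0.21 ± 0.18 for Klrk1.

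Cd8a had 15.1, 13.3, 11.3 and 9.89 CPM in control libraries, 7.49, 4.82, 6.22, 4.66 and 5.22 in WT bleomycin libraries and 7.74, 8.39, 8.84 and 6.28 in CB1R KO libraries, so that both bleomycin groups lay below control and overlapped each other. Cd3e had 9.64, 8.59, 6.45 and 4.82 CPM in control libraries, 6.63, 4.12, 4.61, 6.19 and 5.82 in WT bleomycin libraries and 6.59, 5.02, 6.91 and 6.19 in CB1R KO libraries. Its 3 groups overlapped, and its level was 74.0% and 83.6% of control, where Cd8a stood at 45.8% and 62.4%.

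Between WT bleomycin and control, 8 of the 9 tested genes were called lower at an adjusted p under 0.05, all but Cd3e, where 23.9% of all genes tested were called lower. Without overlap between the groups in CPM, 8 of 9 were below control, where 18.8% of all genes were. Of these, Klrk1 overlapped in TPM. Its call was lost in limma on log2 TPM at pseudocounts of 1 and 0.1 and with only lower-case labels. Between CB1R KO and WT bleomycin, 3 of the 9 were called higher (Gzma, Prf1 and Nkg7), where 0.359% of all genes tested were. All 9 fold changes were above 0, and 4 of the 9 lay above WT bleomycin without overlap in CPM (with Gzmb), where 2.47% of all genes did. Of these, Nkg7 overlapped in TPM. The median log2 fold change of the genes was -1.13 in the first and 0.44 in the second comparison, and the medians of all genes tested were -0.01 and 0.00. The list was chosen on Gzma in these comparisons, so nothing is read from these counts. The comparisons also share the 5 WT bleomycin libraries, so that a low level there enters both. The calls against WT bleomycin rested on few libraries. Gzma was no longer called without CB1R KO replicate 8, 9 or 11, and then no gene of the list was called. Prf1 and Nkg7 were also lost without WT bleomycin replicate 2, 5, 4-B2 or 7, or without Control replicate 24, and Nkg7 without Control replicate 21. Every fold change stayed above 0 in all of these fits.

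CB1R KO bleomycin lungs were compared with control lungs as well. On the log2 scale this comparison is the sum of the comparisons on which the list was picked, and it uses the same libraries. Its counts and adjusted p-values are therefore not independent of that choice and are no separate test of the list. Of the 9 genes, 7 were called lower, where 16.3% of all genes tested were. Apart from Gzma, on which the list was picked, Prf1 (log2 fold change -1.01 ± 0.15, adjusted p = 0.0002), Gzmb (-0.62 ± 0.13, 0.0028), Ncr1 (-1.18 ± 0.26, 0.0031), Cd8a (-0.68 ± 0.18, 0.0081), Nkg7 (-0.54 ± 0.18, 0.0331) and Klrd1 (-0.51 ± 0.18, 0.0338) fell by edgeR's quasi-likelihood test. In the same edgeR fit, Klrk1 (-0.41 ± 0.18, adjusted p = 0.0995) and Cd3e (-0.26 ± 0.21, 0.358) did not pass. Without overlap in CPM, 8 of 9 lay below control, where 15.8% of all genes did, and the exception was Cd3e. In TPM Klrk1 overlapped control as well. The median of the 9 log2 fold changes was -0.62 beside -0.01 for all genes tested. The Nkg7 and Klrd1 calls were close to the threshold. Nkg7 was lost without Control replicate 3 or 24 or CB1R KO replicate 8, 9 or 10, with adjusted p up to 0.0892. Klrd1 was lost without Control replicate 3, 21 or 24 or CB1R KO replicate 8, 9 or 11, with adjusted p up to 0.0787. Both were also lost in limma on log2 TPM, with adjusted p of 0.0643 and 0.0706 for Nkg7 and 0.0998 and 0.106 for Klrd1 at pseudocounts of 1 and 0.1.

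**Figure D2:**
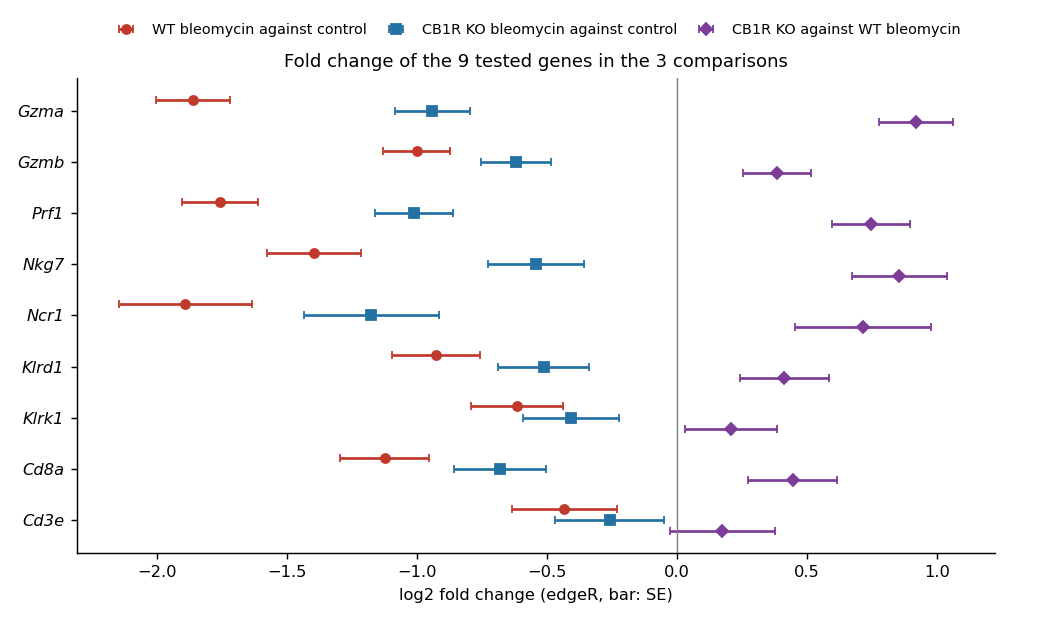
Log2 fold change (x axis) of the 9 tested genes (y axis) in the 3 comparisons, with SE bars from edgeR. All 9 values lie below 0 against control and above 0 for the knockout against WT bleomycin, and Cd3e lies nearest to 0 in each comparison.

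Ratios within a library do not depend on its depth. The TPM ratio of Gzma to Prf1 was 7.15 ± 0.639 (SD, n = 4) in control, 6.53 ± 0.692 (n = 5) in WT bleomycin and 7.39 ± 0.463 (n = 4) in CB1R KO lungs, so the ranges of these groups overlapped. The ratio of Gzma to Ncr1 was likewise 7.29 ± 1.55, 7.68 ± 2.15 and 8.14 ± 1.31. Against Cd3e, however, Gzma was at 7.85 ± 2.13 in control, 2.81 ± 0.550 in WT bleomycin and 4.69 ± 1.40 in CB1R KO lungs. The lowest control library (5.83) lay above the highest WT bleomycin library (3.48). The CB1R KO libraries ran from 3.05 to 6.47 and overlapped both. The ratio of Cd8a to Cd3e was 0.755 ± 0.099, 0.463 ± 0.102 and 0.561 ± 0.116. The mix of granzymes also moved, as Gzmb made up 12.4% ± 0.466 of the summed TPM of Gzma, Gzmb and Gzmk in control, 20.5% ± 3.53 in WT bleomycin and 15.1% ± 3.52 in CB1R KO lungs. Per unit of Prf1, Gzmb was at 0.877 to 1.12 in control libraries and at 1.45 to 2.15 in WT bleomycin libraries, without overlap. In the knockout it was at 1.15 to 1.19 in 3 libraries and at 1.99 in replicate 10. These ratios use the TPM of the rule's own comparisons and carry no test.

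**Figure D3:**
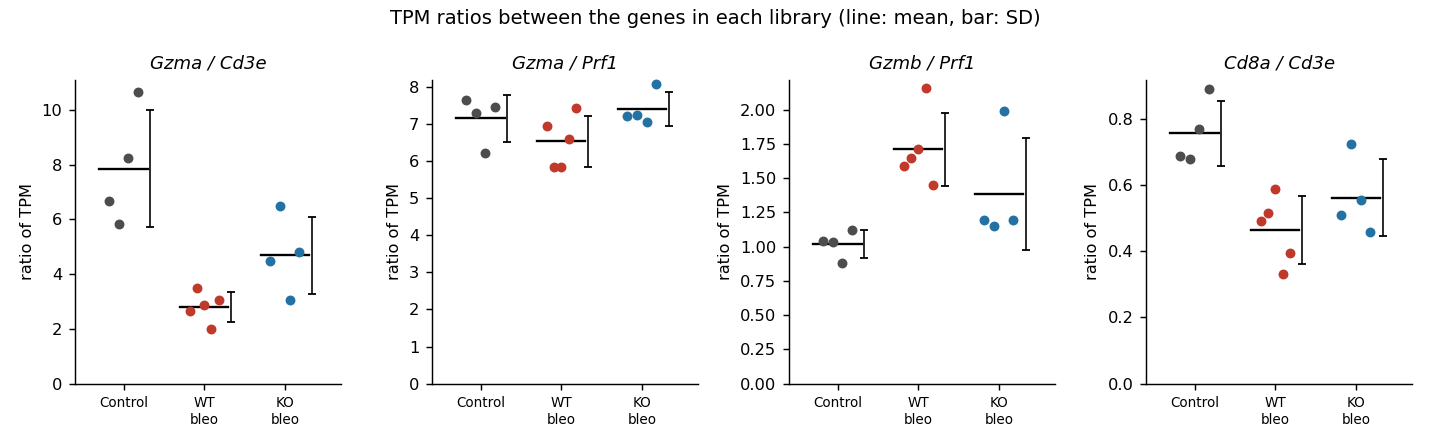
Ratio of the TPM of 2 genes (y axis, starting at 0) in each library, by group (x axis). Points are libraries, lines means and bars SDs. The Gzma to Prf1 ratio overlaps among all groups, while the Gzma to Cd3e ratio of every WT bleomycin library (1.99 to 3.48) is below that of every control library (5.83 to 10.7).

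Within groups the genes did not move as a block. Over the 13 libraries the 36 pairs of the 9 genes had Pearson correlations of log2 CPM from 0.32 to 0.99 with a median of 0.85, which mostly carries the difference between groups. After each group's mean was subtracted, the correlations ran from -0.35 to 0.86 with a median of 0.24, and 30 of the 36 were above 0. Gzma and Prf1 were the pair at 0.86, and Gzma and Gzmb the pair at -0.35. The points share library depth and scaling, and n is 13 for each.

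Some mice stood apart across several genes. WT bleomycin replicate 4 was above its group mean in all 9 genes and the highest of its group in 6. Control replicate 3 was above its group mean in 8 and the highest of its group in 6, and Control replicate 26 was below that mean in 8. CB1R KO replicate 10 was the lowest knockout library for 3 genes and the highest for 4, being 0.41 below its group mean for Gzma and 0.34 below for Prf1 on the log2 scale but 0.23 above for Gzmb and 0.24 above for Klrd1.

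**Figure D4:**
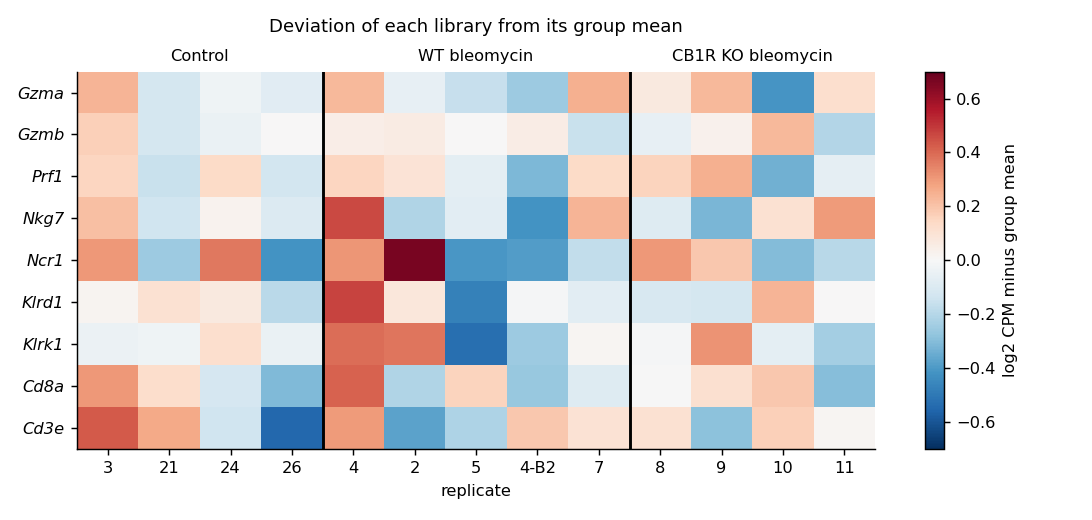
Deviation of log2 CPM from the mean of its group (colour) for the 9 tested genes (rows) in the 13 libraries (columns, by group and replicate). WT bleomycin replicate 4 is red in all 9 rows, and CB1R KO replicate 10 is blue for Gzma, Prf1 and Ncr1 and red for Gzmb and Klrd1.

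The other genes of cytotoxic lymphocytes were taken from lists by role, 150 genes of which 135 were tested. Between WT bleomycin and control, 39 rose and 48 fell, where 25.0% of all genes tested rose and 23.9% fell. In the knockout against control 40 rose and 25 fell, where 19.0% of all genes rose and 16.3% fell. The counts of single lists stand beside the same shares. Between CB1R KO and WT bleomycin 1 rose and none fell in edgeR at the adjusted threshold, where 0.359% of all genes tested rose. Of the 135 fold changes 88 were above 0, where 7673 of all 15315 genes tested were. The 1 gene that rose was S1pr5, a sphingosine phosphate receptor that lets NK cells leave tissue and lymph nodes. It had 8.18 CPM on average in control, 1.95 in WT bleomycin and 3.54 in CB1R KO lungs. Its log2 fold change was -2.06 ± 0.18 (adjusted p = 6.29e-07) for WT bleomycin against control, 0.86 ± 0.18 (0.0411) for the knockout against WT bleomycin and -1.21 ± 0.18 (0.00016) for the knockout against control by edgeR, and no group overlapped another. Its call against WT bleomycin held in 4 of the 13 fits without 1 library and in 7 of the other 12 alternatives, with adjusted p from 0.0047 to 0.171.

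Of 23 NK receptor genes tested outside the list, 12 fell, 3 rose and 8 did not pass in WT bleomycin against control, with a median log2 fold change of -0.99. In CB1R KO bleomycin against control 6 fell, 3 rose and 14 did not pass, with a median of -0.44. Klrb1c, the gene of the NK1.1 antigen, fell by 1.37 on the log2 scale (± 0.15, edgeR adjusted p = 6.02e-06), and Klra8, the gene of the Ly49H receptor, by 2.01 (± 0.28, 4.11e-05). Klra4 fell by 1.82 (± 0.30, 0.000193). The Klra genes are near copies of each other, so their reads can be shared among them. Slamf7, Klrg1 and Klrb1b, which myeloid or other T cells also use, rose, by 0.73 ± 0.17, 1.19 ± 0.28 and 0.59 ± 0.17. Between CB1R KO and WT bleomycin 19 of the 23 fold changes were above 0 with a median of 0.39, and none passed the test. Of the NK markers outside the receptors, 9 of 15 tested fell and 2 rose in WT bleomycin. Cma1, among those that fell, also stands in the list of mast cell markers. Eomes, a T-box factor of NK and CD8 T cells, fell by 1.25 on the log2 scale (± 0.21, adjusted p = 0.000253 in edgeR) and in the knockout against control by 0.79 (± 0.22, 0.013). Itgae, the CD103 integrin of tissue-resident T cells and of dendritic cells, rose by 1.14 ± 0.11 in WT bleomycin and by 1.19 ± 0.11 in CB1R KO lungs against control.

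Of 20 genes of the T cell receptor complex and its signalling, 6 fell and 1 rose in WT bleomycin against control, a share lower near the 23.9% of all genes. In CB1R KO bleomycin against control 2 fell, and the medians were -0.24 and -0.15. Cd8b1, the partner of Cd8a, fell by 1.04 on the log2 scale (± 0.22, edgeR adjusted p = 0.00131) in WT bleomycin. Cd4, the helper T cell coreceptor, did not pass in edgeR (0.18 ± 0.19, adjusted p = 0.469), nor did Cd3d (-0.22 ± 0.19, 0.359). Genes of naive and recirculating T cells fell in 7 of 8 cases in WT bleomycin and in 6 of 8 in CB1R KO lungs against control. Lef1, a factor of naive T cells, fell by 1.12 (± 0.14, adjusted p = 1.31e-05) and 0.96 (± 0.14, 0.000169), respectively, by edgeR on the log2 scale. Checkpoint and regulatory T cell genes went the other way, with 12 of 12 higher in WT bleomycin and 11 of 12 in CB1R KO lungs, and medians of 1.24 and 0.98. Pdcd1, the gene of PD-1, rose by 2.99 ± 0.36 in WT bleomycin, Tnfrsf9 (4-1BB) by 2.68 ± 0.29 and Havcr2 (TIM-3, also of myeloid cells) by 1.04 ± 0.10.

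**Figure D5:**
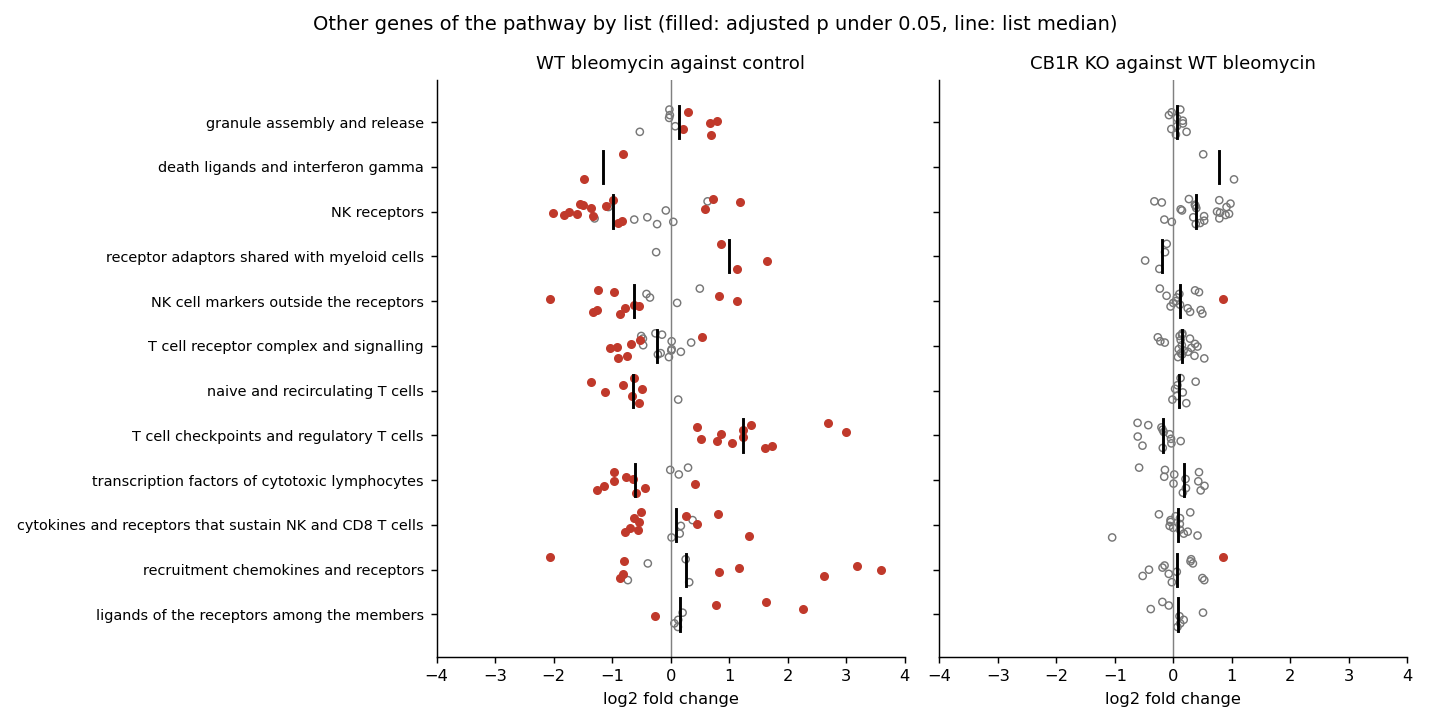
Log2 fold change (x axis) of the tested genes of 12 lists by role (y axis, each point 1 gene) in WT bleomycin against control (left) and CB1R KO against WT bleomycin (right), with filled points past an adjusted p of 0.05 in edgeR and a bar at the median of the list. On the left side most NK receptors lie below 0 and the checkpoint genes above 0, and S1pr5, which stands in 2 lists, is the only filled gene on the right side. The other granzymes, with 1 gene tested, are not drawn.

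Of 10 genes of granule assembly and release, which other cells also use, 5 rose and none fell in WT bleomycin in edgeR, where 25.0% of all genes rose. Serpinb9, an inhibitor that protects cells from granzyme B, rose by 0.80 ± 0.08 in WT bleomycin and 0.96 ± 0.08 in CB1R KO lungs against control. Ctsc, the protease that activates granzymes and is common in myeloid cells, rose by 0.69 ± 0.09 and 0.73 ± 0.10. The adaptors Fcgr3, Fcer1g and Tyrobp, which NK cells share with myeloid cells, rose by 1.65 ± 0.15, 1.13 ± 0.12 and 0.86 ± 0.12 in WT bleomycin. The death ligands Fasl and Tnfsf10 fell by 1.47 ± 0.34 and 0.82 ± 0.18 in WT bleomycin, and their fold changes between CB1R KO and WT bleomycin, 1.04 ± 0.34 and 0.51 ± 0.18, did not pass (adjusted p = 0.148 and 0.162 in edgeR). Of the other granzymes, Gzmm, the only one tested, did not pass in any comparison, with edgeR adjusted p of 0.0901 for WT bleomycin against control.

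Of 13 recruitment genes tested, 5 rose and 4 fell in WT bleomycin, close to the shares of all genes. Cxcl10, a ligand of CXCR3, rose by 3.60 ± 0.28 and Cxcl16 by 1.16 ± 0.07, whereas Cx3cl1 fell by 0.81 ± 0.10 on the log2 scale. Of the cytokines and receptors that sustain NK and CD8 T cells, 4 of 14 rose and 6 fell, which for the genes that rose is also close to those shares. Il2rb, the chain that reads IL-15, fell by 0.62 (± 0.11, adjusted p = 0.000476) and Il12b rose by 1.34 (± 0.30, 0.00176) on the log2 scale by edgeR. The transcription factors of cytotoxic lymphocytes fell in 8 of 12 cases and rose in 1, Id2. Of the ligands that NKG2D and CD94 read, Ulbp1 rose by 1.63 ± 0.19 in WT bleomycin and 1.45 ± 0.19 in CB1R KO lungs, while H2-T23, which encodes the ligand of the CD94 receptors, fell by 0.26 ± 0.06 on the log2 scale in WT bleomycin. Between CB1R KO and WT bleomycin, S1pr5 of the recruitment list was the only gene of these 4 lists (recruitment, cytokines, transcription factors and ligands) that passed.

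Markers of other cells in the blood and vessels of the lung were counted as well, and none of the following passed between CB1R KO and WT bleomycin. B cell markers fell in 6 of 7 cases in WT bleomycin against control, with a median log2 fold change of -1.32, and all 7 values were above 0 between CB1R KO and WT bleomycin, with a median of 0.51. Their summed level was 178 to 449 TPM in control, 72.0 to 201 in WT bleomycin and 134 to 173 in CB1R KO libraries, and all 7 markers, Cd79a included, were well above 0. Neutrophil markers fell in 4 of 6 cases (median -1.88, and 0.50 between CB1R KO and WT bleomycin), and their defining gene Ly6g was near 0 in every group. Red blood cell genes fell in 5 of 5 cases (median -1.08), and all 5 were above 0 between CB1R KO and WT bleomycin with a median of 0.33. Capillary endothelium genes fell in 6 of 7 (median -0.48, then 0.16), and platelet genes in 3 of 4 (median -1.67, then 0.03, with 2 above 0 and 2 below). The part of these cells in the differences of the cytotoxic genes was not tested.

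Of 5 genes of all leukocytes, 3 rose in WT bleomycin against control and none fell, with a median log2 fold change of 0.28. Laptm5 rose by 0.65 ± 0.10, Cd53 by 0.39 ± 0.12 and Lcp1 by 0.28 ± 0.10, and Ptprc and Coro1a did not pass. Ptprc, the gene of CD45, was at 85.6 ± 20.8 TPM (SD, n = 4) in control, 70.4 ± 14.0 (n = 5) in WT bleomycin and 84.0 ± 4.89 (n = 4) in CB1R KO lungs, and the log2 fold change between WT bleomycin and control was -0.29 ± 0.14 (edgeR adjusted p = 0.0916). Monocyte-derived macrophage genes rose in 8 of 8 cases, with a median of 2.77, and fibroblast genes rose in 4 of 6. Of type II alveolar genes, which do not belong to lymphocytes, 4 of 5 fell in WT bleomycin and 2, Sftpc (0.66 ± 0.13, adjusted p = 0.0289) and Lamp3 (0.51 ± 0.11, 0.0416), rose between CB1R KO and WT bleomycin by edgeR. Type 2 innate lymphoid, mast, plasma, plasmacytoid dendritic, type 17 and type I alveolar lists and alveolar macrophages had medians from -1.05 to 1.01 in WT bleomycin against control and from -0.17 to 0.42 between CB1R KO and WT bleomycin.

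The genes whose levels were most like the list were ranked by the Pearson correlation, over the 13 libraries, of their log2 CPM with the mean z score of the 9 tested genes, among 14451 genes of at least 1 CPM on average. The first was S1pr5 (0.98), and Chst3, Nsg2, Il17rd, Wnt2, Arhgef18 and Gimap8 were among the first 8, at 0.96 to 0.97. After group means were subtracted, so that only differences among mice of a group counted, the first was Gimap8 (0.96), and Pax5, Inpp4b, Chst3, Ero1b, Ripor2 and H2-Ob were among the first 8, at 0.91 to 0.94. Pax5 stands in the B cell list, and no NK receptor of the lists was among these 8. The points share depth and scaling, and these correlations are descriptions.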

How the data were processed

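Lung RNA of 4 control, 5 WT bleomycin and 4 CB1R KO bleomycin mice was sequenced by the authors from poly(A) libraries (NEBNext Ultra II, paired-end, Illumina HiSeq). The authors quantified reads with Kallisto on Ensembl transcripts (GRCm39 in the submitters' processing notes, version of Kallisto not given in the sources used here) and deposited estimated counts of protein-coding transcripts, summed per gene symbol and not normalized. The deposited TPM values, made by the authors in the same run, are scaled for transcript length. Of the TPM columns, 1 matched no sample and was not used.

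Estimated counts were rounded, filtered with filterByExpr (15315 of 20270 genes) and compared by edgeR's quasi-likelihood test (version 4.0.16, R 4.3.3) after TMM scaling. The model had a term for each group and no covariate, and p-values were adjusted over all genes tested by the Benjamini-Hochberg method (threshold 0.05). Log2 CPM used a prior count of 2. Alternatives were DESeq2 1.42.0, limma 3.58.1 on log2 TPM with pseudocounts of 1 and 0.1, other filters and scalings, fits of 2 groups, the style of the labels (lower case or capitals), CB1R KO replicate 11 thinned to the median depth of the other libraries, and each library left out in turn, 25 in all. The fits were tested on simulated data with known changes. Depth was 14615904 to 53463884 estimated counts, and the median SE of a log2 fold change was 0.11 to 0.12 over all genes and 0.17 to 0.18 over the listed ones. Plots were drawn with matplotlib 3.10.9, and tables were handled with numpy 2.4.6 and pandas 2.3.3 (Python 3.11.15).

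Groups and replicate numbers came from the labels, which share no number between groups. The p-values weigh differences between group means against the spread between these mice. In edgeR that spread was estimated over all groups together, with information shared across genes. Differences between group levels of the 10 genes in the comparisons that chose them carry no p-value.

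The genes and lists were chosen with earlier results of these data known. Named with values were the 10 genes, and from each list of other genes up to 3 of lowest p in each direction past the threshold in a comparison, with Klrb1c, Cd8b1, Cd4 and Cd3d. Genes of like level were the first 8 by correlation. Some genes that these rules name are not reported here. Genes named beside these (Cnr1, Ptprc, Coro1a, Gzmm, Ly6g, Ager, Lamp3) serve as checks or make up a count of 5 or fewer, and were chosen after their values were seen. Promoter windows came from RefSeq on GRCm38.p6, another build than that of the counts, and no counts were tied to positions.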

Additional observations from a re-analysis of the deposited data

Results flagged for a closer look

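Of the 30 sets of levels examined (10 genes in 3 groups), 3 held a library whose CPM stood apart from the rest of its group by Dixon's test, where chance flags about 1 in 20. Gzmb in WT bleomycin replicate 7 was at 3.39 CPM, and the nearest library of that group was at 3.81. Gzmk in WT bleomycin replicate 4 was at 1.08 CPM, where the nearest library was at 0.138. Klrk1 in Control replicate 24 was at 13.2 CPM, where the nearest was at 11.9. Gzmb and Klrk1 kept their direction in every comparison without these libraries.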

How the results depend on the processing

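Against control, the listed genes called numbered 8 in WT bleomycin (7 to 9 over all alternatives) and 7 in CB1R KO bleomycin (5 to 8). Of the 675 fold changes of these genes refitted under 25 alternatives, 626 kept their direction and side of the threshold, 45 lost the call, 4 gained it and none reversed. They include the 225 values of each comparison on which the list was picked. The refits share most libraries, so these counts describe the fits and are no separate support for the list. Of 4261 refitted values of the genes chosen from the other lists (up to 3 past the threshold per list, direction and comparison), 185 lost the call and none reversed.

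The comparison of CB1R KO with WT bleomycin depended on the setting. Over all genes 150 were called by edgeR, 640 by DESeq2 on all libraries and 644 on 2 groups, 93 by limma with a pseudocount of 0.1, 88 by edgeR on 2 groups, 41 with the label style as a batch term and 6 with only the libraries in lower-case labels. Leaving out 1 library gave 1 (without CB1R KO replicate 9) to 653 (without CB1R KO replicate 10), with 1 to 9 without CB1R KO replicate 8, 9 or 11, 24 to 62 without WT bleomycin replicate 2, 5, 4-B2 or 7, 85 without Control replicate 24 and 230 without WT bleomycin replicate 4. Of the listed genes 3 were called, 1 (Gzma) by edgeR on 2 groups and with the label style as a batch term, 0 with only lower-case labels, and 0 to 3 without 1 library. Of the other list genes 1 was called (S1pr5), 5 and 4 by DESeq2 on all libraries and on 2 groups, 0 by limma with either pseudocount, by edgeR on 2 groups, with the label style or with lower-case labels only, and 0 to 3 without 1 library. Capital labels are found in 1 control and 2 WT bleomycin libraries and in no knockout library, and the lower-case fit has fewer libraries. Thinning CB1R KO replicate 11 changed none of these 3 counts by more than 1.5 times. The median log2 fold change of the list was 0.36 to 0.59 over all alternatives, some of which also fitted Gzmk. No paired analysis was possible because the groups share no replicate number in the labels.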

Other observations

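The summed TPM of the 10 genes was 151 ± 18.2 (SD, n = 4) in control, 62.3 ± 11.9 (n = 5) in WT bleomycin and 97.8 ± 2.99 (n = 4) in CB1R KO lungs, and the knockout libraries, at 94.9 to 101, lay closer together than those of the other groups. WT bleomycin replicate 4 had the highest sum of its group at 81.5. The level of Gzmk, which was not tested, was highest in CB1R KO replicate 10 (8.00% of the summed granzyme TPM) and WT bleomycin replicate 4 (7.08%), and at most 2.87% in the other 11 libraries.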
